A study of Mus musculus with 18 samples.

Results

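The insulin-like growth factor (IGF) genes and the H19 RNA were followed in RNA sequencing of mouse back skin. The members were the rows of the deposited expression table whose gene symbol is Igf1, Igf2, Igf1r, Igf2r, Igfbp2, Igfbp3, Igfbp4, Igfbp5, Igfbp6 or H19, and each symbol had 1 row, so that 10 of 55357 genes were taken. The samples were back skin of FVB mice aged 6 months, 1 library per mouse. There were 6 wild-type mice (WT), 6 transgenic mice with exogenous IKKα in the keratinocyte nucleus (N-IKKa) and 6 with exogenous IKKα in the keratinocyte cytoplasm (C-IKKa). The sources used here do not give the promoter that drives the transgenes or the number of founder lines. Values are normalized counts, reads per gene that the authors had divided by 1 factor per library. Libraries held 11.1 to 15.7 M (megareads) of counted reads, and 1 read was worth 0.816 to 1.20 normalized counts. The limit given for a count of 0 covers counting error only, and the 95% limits of fold changes rest on the spread between mice.

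IGF1 and IGF2 are small secreted hormones that signal growth and survival through the receptor tyrosine kinase encoded by Igf1r. Igf2r encodes a receptor without kinase activity that carries IGF2 to lysosomes. The IGF binding proteins hold the ligands outside cells and can limit or prolong their action, and proteases release the ligands from them. In skin, IGF1 comes largely from dermal fibroblasts and dermal papilla cells and acts on keratinocytes and on the growing hair follicle. H19 is a non-coding RNA next to Igf2 in 1 imprinted locus, is expressed from the maternal allele, and is abundant in embryonic tissues and in skeletal muscle.

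Hair follicle genes split these libraries. The mean log2 value of 29 hair shaft and inner root sheath genes was 9.52 to 11.8 in 6 libraries (C-IKKa 14, N-IKKa 8, 9 and 11, WT 1 and 4) and 1.88 to 4.88 in the other 12. These are called the high and low hair shaft libraries. Of the 29 genes, 28 were higher in the high libraries and Tchh was listed at 0 in all. A library was read as male where it held over 500 normalized counts of Ddx3y, a gene of the Y chromosome (1536 to 2025 in 8 libraries against 0 to 44.4 in 10). All 8 male libraries were low. The 6 high libraries were female, as were WT 2, WT 5, N-IKKa 10 and C-IKKa 18. The states were read from the data and not from the labels, so values are compared between them as a description with no test. Chuk, which encodes IKKα, was not higher in the transgenic groups. Its log2 difference from WT was −0.018 for N-IKKa (exact permutation p = 0.848, adjusted over 3 comparisons 0.848). For C-IKKa the difference was −0.17 (exact permutation p = 0.0563, adjusted 0.0844). Between N-IKKa and C-IKKa it was 0.15 (exact permutation p = 0.0346, adjusted 0.0844). Whether the counting captures the transgene's RNA was not tested.

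Igfbp5 was the most abundant member per length of transcript. Levels of different genes are compared here as normalized counts per kilobase of exon, with exon lengths from GENCODE M21 (build GRCm38) because the feature counted by the authors was not given in the sources used here. Igfbp5, which encodes a binding protein that also attaches to extracellular matrix, had a median level of 3777 per kilobase over the 18 libraries. Igfbp3, the main carrier of IGF1 in serum, followed with 1242, and H19 with 1213. The order went on with Igfbp4, an inhibitory binding protein, at 555 and Igfbp6, which prefers IGF2, at 534. The receptor gene Igf1r had 227 per kilobase, its ligand Igf1 226, Igfbp2 115 and Igf2r 82.6. Several neighbours in this order were not separated. Igfbp3 exceeded H19 in 9 of 18 libraries, Igfbp4 exceeded Igfbp6 in 7 of 18, Igf1r exceeded Igf1 in 11 of 18 and Igfbp2 exceeded Igf2r in 13 of 18. Igfbp5 exceeded Igfbp3 in 18 of 18, and H19 exceeded Igfbp4 in 17 of 18. Igfbp5 made up 39.1 to 71.0% of the length-scaled sum of the 5 binding protein genes, and Igfbp3 9.51 to 30.4%.

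Igf2 was listed at 0 in all 18 libraries. A listed 0 allows up to 3 reads, which is 2.45 to 3.61 normalized counts in these libraries. The same locus gave 804 to 10899 normalized counts of H19 and 325 to 3084 of its non-coding neighbour Nctc1. Igf2os, which is antisense to Igf2, was also at 0, as were Gm49394, Mir483 and Mir675. In the GRCm38 annotation Igf2 lies on chromosome 7 at 142650766 to 142666816 on the minus strand. There, 99.9% of its exon bases fall inside the span of other annotated genes, namely Gm49394 on the same strand and Igf2os on the opposite strand. Protein-coding genes with at least 95% of exon bases inside other genes' spans were at 0 in every library in 1307 of 1720 cases (76.0%). Of those with under 5% inside, 2472 of 15725 (15.7%) were. The 0 of Igf2 therefore cannot be told apart from reads that were not assigned to 1 gene. Of the other members, Igf1 has 26.3% of its exon bases inside the span of Igf1os, H19 has 9.15% inside small RNA genes, Igf2r has 5.58% inside Airn, and the binding protein genes and Igf1r have 0%. The annotation release used by the authors may differ from the one used here.

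The plot of members by library shows each value beside the mean of its group.

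**Figure D1:**
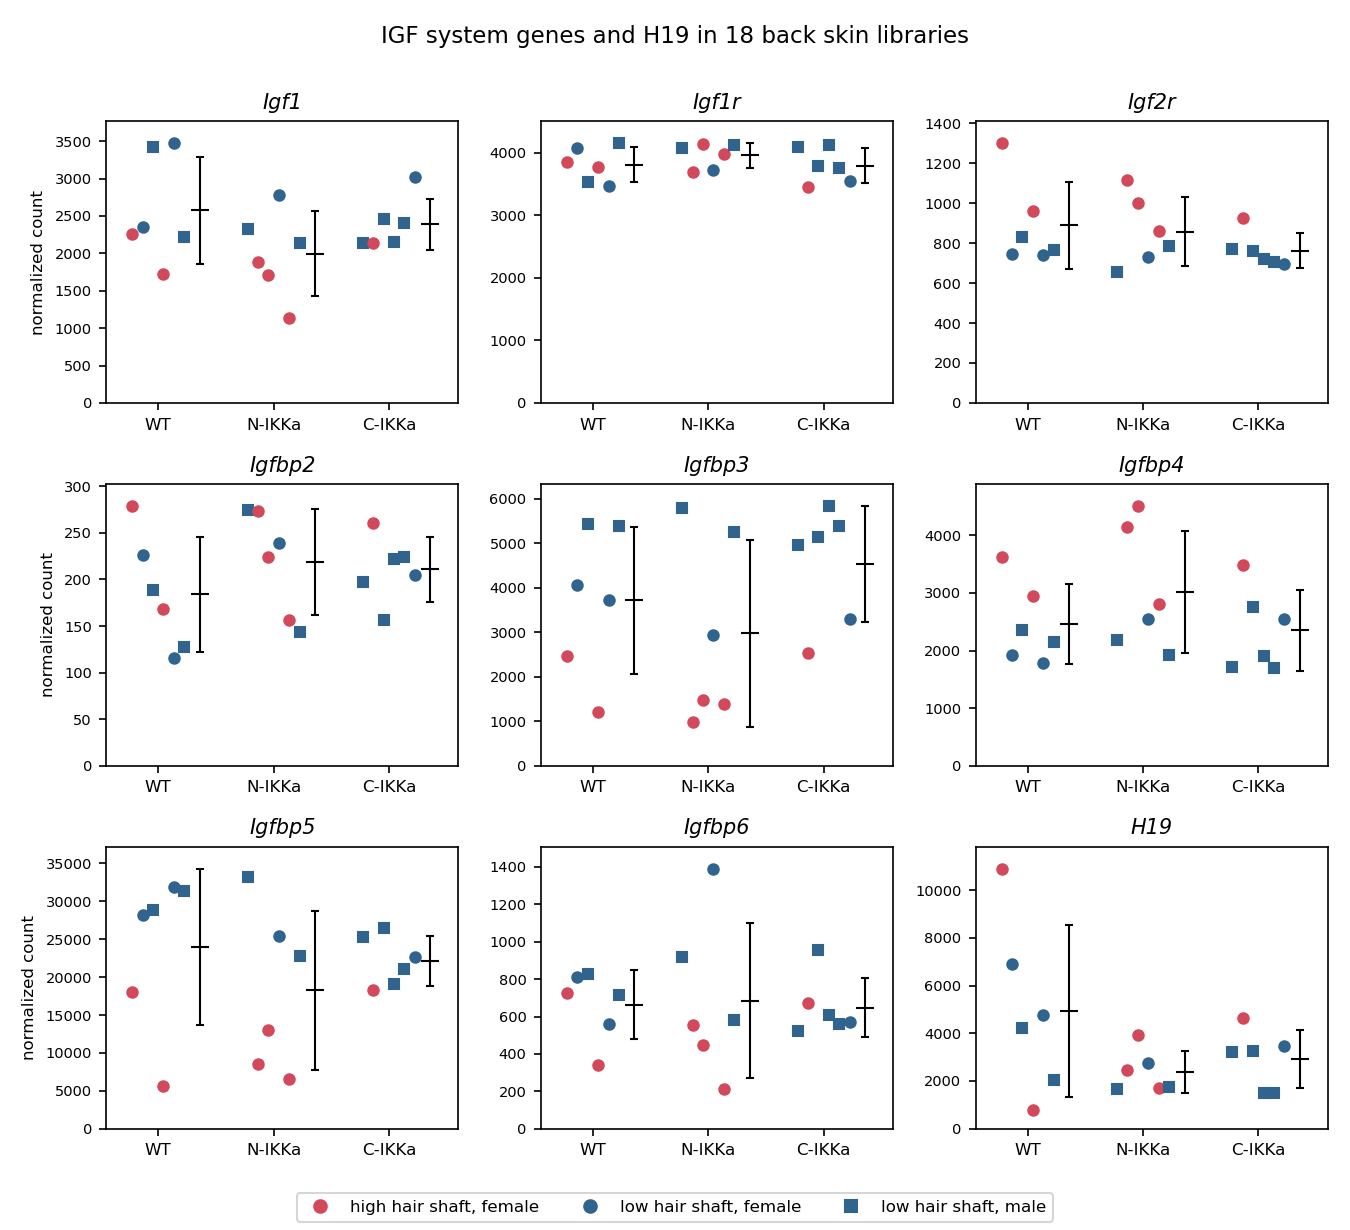
Normalized counts of 9 members in 18 back skin libraries, by genotype; red circles are high hair shaft libraries (all female), blue circles low female and blue squares low male libraries, and the black bar is the group mean ± SD (n = 6). Igf2, at 0 in every library, is not drawn. The red points of Igfbp3 and Igfbp5 lie below the blue ones and those of Igfbp4 and Igf2r above them, while Igf1r stays between 3444 and 4150.

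The 4 members whose values did not overlap between hair states were Igfbp3 and Igfbp5, lower in the high libraries, and Igfbp4 and Igf2r, higher there. Their RefSeq promoter windows are shown because these genes separated the hair states. Each is the 250 bases before the transcription start in GRCm38.p6, at chr1:72874866-72875115 for Igfbp5, chr11:7213924-7214173 for Igfbp3, chr11:99040994-99041243 for Igfbp4 and chr17:12769707-12769956 for Igf2r. Igfbp4 is on the plus strand and the others are on the minus strand. Capitals mark matches on either strand to the motifs TATAAA, known from core promoters, GGGCGG, known as the GC box, and CACGTG, known as an E-box.
Igfbp3: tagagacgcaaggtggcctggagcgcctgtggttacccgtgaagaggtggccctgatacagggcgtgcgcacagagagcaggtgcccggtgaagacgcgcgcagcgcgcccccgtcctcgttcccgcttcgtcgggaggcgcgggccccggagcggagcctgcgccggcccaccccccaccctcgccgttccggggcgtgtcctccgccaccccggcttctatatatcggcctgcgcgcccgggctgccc
Igfbp5: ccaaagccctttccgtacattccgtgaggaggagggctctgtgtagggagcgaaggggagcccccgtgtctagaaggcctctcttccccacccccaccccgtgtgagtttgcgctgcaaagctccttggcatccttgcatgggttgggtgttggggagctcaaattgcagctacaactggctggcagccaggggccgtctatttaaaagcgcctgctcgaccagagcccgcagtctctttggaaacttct
Igfbp4: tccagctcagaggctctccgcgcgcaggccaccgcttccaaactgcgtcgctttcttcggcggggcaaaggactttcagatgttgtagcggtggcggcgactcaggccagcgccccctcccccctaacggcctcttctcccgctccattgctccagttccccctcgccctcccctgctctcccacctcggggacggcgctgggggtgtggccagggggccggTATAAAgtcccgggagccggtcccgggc
Igf2r: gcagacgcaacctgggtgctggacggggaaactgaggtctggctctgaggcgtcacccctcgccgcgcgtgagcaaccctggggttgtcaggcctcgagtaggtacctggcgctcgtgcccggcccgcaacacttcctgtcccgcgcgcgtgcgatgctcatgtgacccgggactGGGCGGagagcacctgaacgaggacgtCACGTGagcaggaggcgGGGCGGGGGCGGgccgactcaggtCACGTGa
The Igfbp4 window held 1 TATAAA match, which begins 28 bases before the start. The Igf2r window held 3 GGGCGG matches, of which the last pair stands in 1 run, and 2 CACGTG matches. The windows of Igfbp3 and Igfbp5 held no exact match to any of the 3 motifs. Variants of the motifs were not searched for, so these windows are not shown to lack such promoter elements. Of 32851 RefSeq windows of this length, 12.4% held TATAAA, 32.7% GGGCGG and 6.02% CACGTG. Of the 10 members, 9 had at least 1 window, 13 windows in all. Members that overlapped between the hair states held matches too. The Igfbp6 window held 1 TATAAA, 1 Igfbp2 window 3 GGGCGG and 1 CACGTG, and the Igf1r window 2 GGGCGG. The Igf1 window and the other Igfbp2 window held none. A match is a description of these letters and not of binding.

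With the male libraries counted, Igfbp3 showed the widest gap of the members between the state medians. In the high libraries it ran from 991 to 2536 normalized counts with a median of 1433, and in the low libraries from 2936 to 5841 with a median of 5200. The medians were 3.63-fold apart. No high library reached the lowest low library. The 4 low female libraries had a median of 3516, and for Igfbp5 theirs was 26849 against 10776 in the high libraries. By these medians the gap of Igfbp3 was no wider than that of Igfbp5. The log2 difference between state medians was −1.43 within WT, −1.93 within N-IKKa and −1.02 within C-IKKa, which has 1 high library.

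Igfbp5 ran from 5579 to 18325 in the high libraries (median 10776) and from 19038 to 33165 in the low libraries (median 25959), a 2.46-fold difference. The states came close at C-IKKa 14, with 18325, and C-IKKa 16, with 19038. Within WT and N-IKKa the log2 differences were −1.59 and −1.57, and within C-IKKa −0.30. Under quantile scaling, an alternative chosen after the data were seen, Igfbp5 overlapped between the states, and Igfbp3, Igfbp4 and Igf2r did not.

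Igfbp4 moved the other way. It ran from 2808 to 4513 in the high libraries (median 3552) and from 1705 to 2756 in the low ones (median 2036), 1.75-fold higher by the medians. The within-group log2 differences were 0.69 among WT, 0.92 among N-IKKa and 0.86 among C-IKKa libraries. The ratio of Igfbp5 to Igfbp4 was therefore 1.90 to 5.27 in the high and 8.88 to 17.8 in the low libraries. That of Igfbp3 to Igfbp4 was 0.24 to 0.73 in the high libraries and 1.15 to 3.15 in the low ones. As a share of the length-scaled binding protein sum, Igfbp4 made up 14.6 to 28.1% in the high libraries and 5.42 to 9.58% in the low ones.

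Igf2r ran from 861 to 1303 in the high libraries (median 981) and from 655 to 831 in the low libraries (median 741), a smaller difference of 1.32-fold. All 6 high libraries lay above all 12 low ones. Igf1r did not separate the states. It ran from 3444 to 4145 in the high libraries and from 3472 to 4150 in the low libraries, with medians of 3804 and 3929.

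Igf1 was lower in most high libraries. It ran from 1132 to 2257 there (median 1803) and from 2140 to 3479 in the low libraries (median 2375). Of the 6 high libraries, 5 lay below every low library, and WT 1, with 2257, was the exception. C-IKKa 14, with 2137, lay only just under the lowest low library, C-IKKa 13, with 2140. Among the 10 female libraries alone, the 6 high ones all lay below the 4 low ones, which held 2348 to 3479. Igfbp6 overlapped, at 212 to 725 in the high libraries and 523 to 1392 in the low ones. Igfbp2, a binding protein found in many embryonic and adult tissues, overlapped as well, at 157 to 279 and 116 to 275.

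Without overlap were 4 of the 9 measurable members. Of all 17667 genes that passed the filter, 13.7% did not overlap between the states, 8.45% higher and 5.25% lower in the high libraries. Among females alone it was 5 of 9 members, Igf1 being added, against 22.6% of all genes (13.0% higher and 9.65% lower). The median log2 difference of all genes between the states was −0.0089. All 9 measurable members passed the filter on low values, which asked for 10 or more normalized counts in 6 or more libraries.

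**Figure D2:**
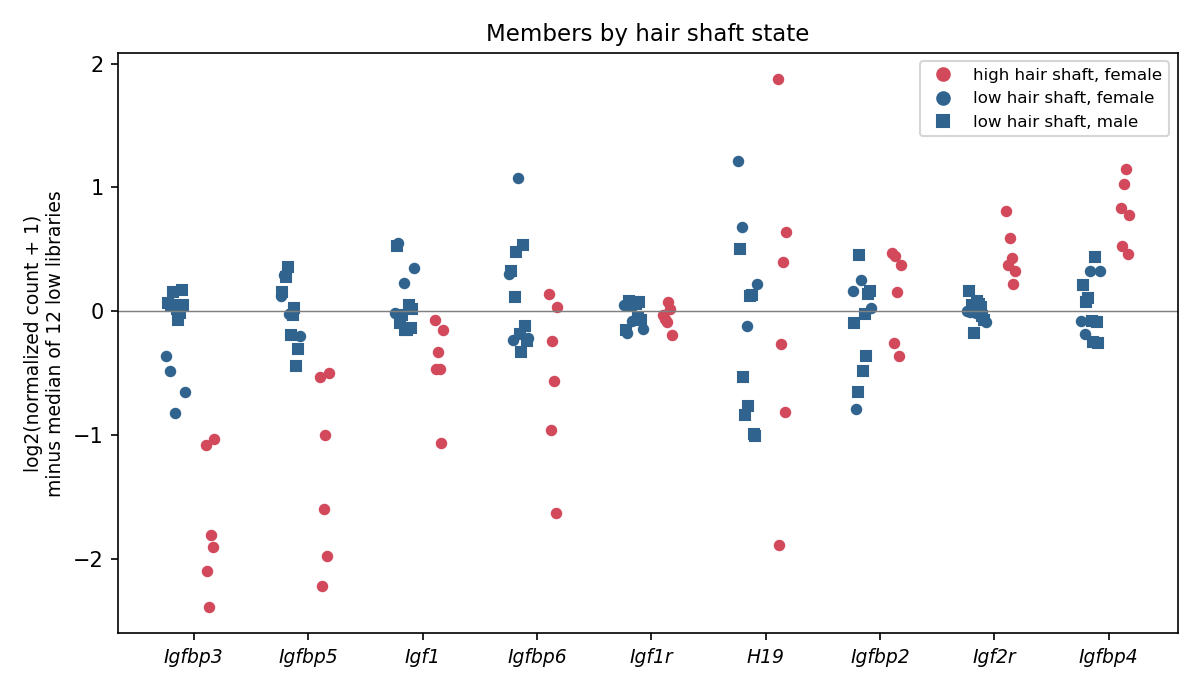
Difference of each library's log2(normalized count + 1) from the median of the 12 low hair shaft libraries, for 9 members ordered from Igfbp3 to Igfbp4; colours and shapes mark hair state and sex as read from the data. The red points of Igfbp3 and Igfbp5 lie below all blue points and those of Igf2r and Igfbp4 above them, whereas H19 spans more than any other member in both states.

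Markers of several cell types moved with the hair state. All 10 fibroblast markers had lower medians in the high libraries, and the mean log2 value of the list was 10.6 to 11.7 there against 11.4 to 12.9. Summed normalized counts of that list were 30282 to 73305 in the high and 47746 to 409035 in the low libraries. The 4 low female libraries held 47746 to 76345 (median 65641). They overlapped the high libraries, which were all female (median 46340). Of the 18 muscle markers 17 had lower medians, as did 9 of 10 adipocyte, 8 of 8 endothelial and 9 of 10 macrophage and monocyte markers. Myh7 and Itgam were listed at 0 throughout. The means of all these lists overlapped between the states. In the high against the low libraries they were 8.37 to 11.1 against 10.1 to 11.5 for muscle and 9.54 to 11.0 against 10.1 to 11.4 for adipocytes. Endothelial means were 7.39 to 8.50 against 8.35 to 9.08, and macrophage and monocyte means 7.73 to 9.45 against 8.66 to 9.57. Of the 12 dermal papilla markers 9 were higher and 1 was lower, with list means of 5.95 to 6.83 against 4.81 to 5.81. Sox2 and Fgf7 of that list were listed at 0 in all libraries. Exon overlap with other genes is not given here for the markers listed at 0, so those values cannot be read as absence. The basal keratinocyte list mean was 12.3 to 12.8 in the high and 12.9 to 13.2 in the low libraries, with 5 of 7 markers lower. The suprabasal list means overlapped, at 10.1 to 11.1 and 10.8 to 11.3, with 5 of 8 markers lower and 3 higher. Whether these cell types carry the differences of Igfbp3, Igfbp5, Igfbp4, Igf2r or Igf1 was not tested. In bulk tissue, fewer cells of a type and less RNA per cell cannot be told apart.

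Igfbp3 also differed by sex within the low libraries. The 8 male libraries held 4948 to 5841 normalized counts (median 5379) and the 4 female ones 2936 to 4052 (median 3516). The sexes did not overlap. It was the 1 member of 9 for which this held, against 3.06% of all tested genes (1.74% with males above and 1.32% with males below). Fibroblast markers moved with sex too, with summed counts of 189297 to 409035 in the low male and 47746 to 76345 in the low female libraries. Their part in the Igfbp3 difference was not tested. Hair state and sex are partly joined in these libraries, since no male library was high, and within females Igfbp3 still ran from 991 to 2536 in the high against 2936 to 4052 in the low libraries.

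The comparisons of genotypes ask what IKKα in the keratinocyte nucleus or cytoplasm does to skin expression. No member was called in any of the 3, at an adjusted p below 0.05 by limma over all 17667 genes. Comparing C-IKKa with WT, this was 0 of 9 tested members, where 0.345% of all genes were called, all of them higher. Between N-IKKa and WT it was 0 of 9, where 0.00566% were called. Between N-IKKa and C-IKKa it was 0 of 9, where 0.43% were called, 0.00566% higher and 0.425% lower. The members with an unadjusted p below 0.05 numbered 0 in each comparison, against 5.73%, 4.14% and 11.7% of all genes in the same order. Members whose groups did not overlap also numbered 0, against 0.985%, 0.125% and 1.05%. On recovered reads, edgeR called 0 members in each, against 0.311%, 0.00566% and 0.34% of all genes, and DESeq2 called 0, against 0.855%, 0.0113% and 1.06%. With the hair shaft list mean as a covariate limma called 0 members, against 0.934%, 0.00566% and 0.894%, and with sex added 0, against 0.883%, 0.00566% and 1.01%. Without the 6 high libraries it called 0, against 0.923%, 0.0113% and 0.289%. The high hair shaft libraries were unequally spread, with 2 of the WT, 3 of the N-IKKa and 1 of the C-IKKa libraries, and the male libraries were 2, 2 and 4.

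The ligand Igf1 ranged from 1719 to 3479 in WT (median 2302) and from 1132 to 2785 in N-IKKa (median 2015). C-IKKa skin held 2137 to 3020 (median 2280). The groups overlapped. The log2 fold change was −0.37 in N-IKKa against WT (SE 0.20, 95% limits −0.79 to 0.04, limma adjusted p = 0.88) and −0.075 for C-IKKa relative to WT (SE 0.20, limma adjusted p = 0.989). The 3 lowest N-IKKa libraries were its 3 high hair shaft libraries.

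The receptor Igf1r was the steadiest member. Its mean was 3807 ± 275 in the WT group, 3955 ± 201 with nuclear IKKα and 3790 ± 276 with cytoplasmic IKKα (SD, n = 6). The limits of the difference were correspondingly narrow, a fold of 0.90 to 1.10 for C-IKKa over WT and of 0.94 to 1.15 for N-IKKa over WT. Igf2r had means of 891 ± 218, 858 ± 172 and 763 ± 85.8 (SD, n = 6 each) in that order of groups. Its fold limits were 0.70 to 1.08 for C-IKKa over WT and 0.78 to 1.20 for N-IKKa over WT.

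Among the binding proteins, Igfbp3 had the lowest adjusted p of any member. It ran from 1212 to 5440 in WT (median 3889) and from 991 to 5799 in N-IKKa (median 2209). Its C-IKKa values were 2536 to 5841 (median 5044). In N-IKKa against C-IKKa the log2 fold change was −0.87 (SE 0.44, 95% limits −1.79 to 0.06, limma adjusted p = 0.441). Within N-IKKa the 3 high hair shaft libraries held 991 to 1482, the low female library 2936 and the low male libraries 5260 and 5799. Without the 6 high hair shaft libraries the value for Igfbp3 was −0.11.

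Igfbp5 averaged 23994 ± 10334 in WT libraries, 18255 ± 10516 in those of N-IKKa mice and 22130 ± 3295 in those of C-IKKa mice (SD, n = 6). The log2 fold changes against WT were −0.42 (N-IKKa, SE 0.42) and 0.073 (C-IKKa, SE 0.42), and the second turned to −0.40 without the 6 high libraries. For Igfbp4 they were 0.27 and −0.073 (SE 0.23), for Igfbp6 −0.13 and −0.0048 (SE 0.34) and for Igfbp2 0.27 and 0.24 (SE 0.22), in the same order. Over the 9 members the median log2 fold change was −0.0066 for C-IKKa over WT, −0.13 for N-IKKa over WT and −0.12 for N-IKKa over C-IKKa. The medians over all genes were 0.00028, 0.0057 and 0.0061. The first 2 comparisons share the WT libraries.

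**Figure D3:**
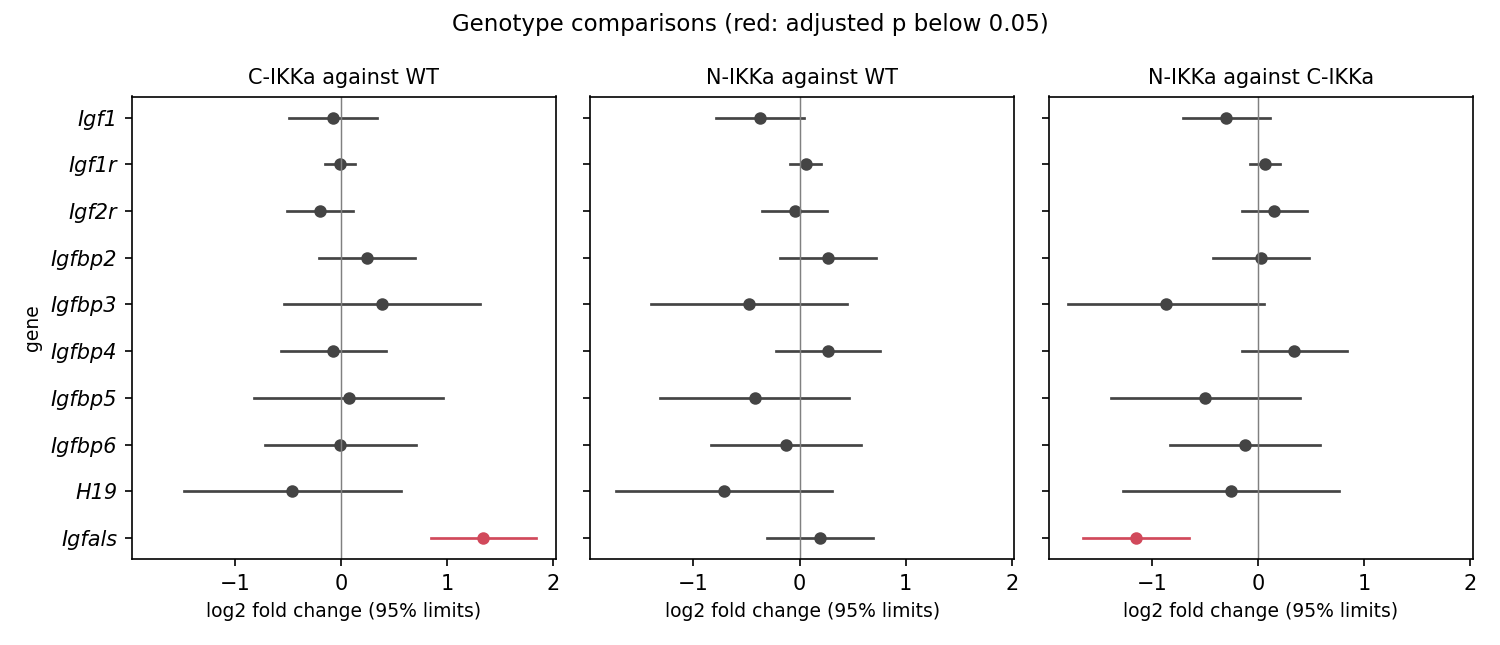
Log2 fold changes (points) with 95% limits (lines) from limma for 9 members and Igfals in the 3 genotype comparisons, n = 6 libraries per group; red marks an adjusted p below 0.05 over 17667 genes. The limits of every member cross 0, and Igfals lies at 1.34 for C-IKKa over WT and at −1.15 for N-IKKa over C-IKKa.

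Beyond the members, 66 genes in 7 lists of the pathway were examined. Of the 8 genes of IGF binding and processing, 6 were tested, and Igfals rose in C-IKKa. Igfals encodes the acid-labile subunit, which joins IGF1 and IGFBP3 or IGFBP5 in the large circulating complex, and is known mainly from liver. It held 131, 192, 104, 306, 176 and 149 normalized counts in WT 1 to 6. N-IKKa 7 to 12 held 173, 270, 209, 181, 214 and 124, and C-IKKa 13 to 18 held 479, 490, 251, 443, 486 and 450. Of the C-IKKa libraries 5 lay above all WT and N-IKKa libraries, and C-IKKa 15, with 251, lay below WT 4 and N-IKKa 8. For C-IKKa over WT the log2 fold change of Igfals was 1.34 (SE 0.24, 95% limits 0.84 to 1.84, limma adjusted p = 0.0130). In N-IKKa against C-IKKa it was −1.15 (SE 0.24, limma adjusted p = 0.0365), and in N-IKKa against WT 0.19 (limma adjusted p = 0.887). The call of Igfals in N-IKKa against C-IKKa was lost in 13 of 18 fits that left out 1 library, with log2 fold changes of −1.30 to −1.03 and adjusted p of up to 0.117 over all 18. Igfals overlapped between the hair states.

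The other tested genes of the list were not called, among them Igfbp7, which encodes a secreted relative of the binding proteins (0.24 on the log2 scale in C-IKKa against WT, SE 0.14). Pappa, a protease that cleaves IGFBP4, gave 0.55 in N-IKKa against WT (SE 0.34), and Stc2, a stanniocalcin that inhibits PAPP-A, −0.48 (SE 0.33). Between the hair states, Pappa was higher in the high libraries, with 486 to 1070 (median 804) against 221 to 449 (median 334), as was Stc1, the other stanniocalcin, with 140 to 326 (median 234) against 24.6 to 133 (median 72.9). Neither overlapped between the states. Of the 6 tested genes of the list, 2 were therefore higher without overlap and 0 lower, beside the 8.45% and 5.25% of all genes.

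In the insulin receptor family and its adaptors, 0 of 9 tested genes were called in each comparison. Irs2, an adaptor that passes the signal to PI3K, gave 0.34 in C-IKKa against WT (SE 0.11, limma adjusted p = 0.482) and Gab1, a docking protein, −0.15 (SE 0.10). In N-IKKa against WT, Insr, the insulin receptor, gave −0.24 (SE 0.14) and Sos1, an exchange factor for RAS, 0.21 (SE 0.13). Insr was the 1 gene of this list without overlap between the hair states, with 1233 to 1817 in the high and 1870 to 2580 in the low libraries. This is 1 of 9 tested genes, near the 13.7% of all genes that did not overlap in either direction. Insrr was listed at 0 in all libraries, and in GRCm38 all of its exon bases lie inside the span of Pear1.

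Of 17 genes of PI3K, AKT and FOXO signalling, 0 were called in each comparison, and 0 separated the hair states. Foxo1, a transcription factor that AKT excludes from the nucleus, gave −0.20 in C-IKKa against WT (SE 0.09, limma adjusted p = 0.835) and 0.30 in N-IKKa against C-IKKa (SE 0.09, limma adjusted p = 0.222). Foxo1 did not overlap between C-IKKa (1856 to 2038) and WT (2129 to 2675), beside 0.985% of all genes in that comparison. The PI3K subunit gene Pik3cb gave −0.13 in C-IKKa against WT (SE 0.09). In N-IKKa against WT, the kinase genes Akt2 and Mtor gave −0.14 (SE 0.07) and 0.19 (SE 0.11), and in N-IKKa against C-IKKa Mtor gave 0.30 (SE 0.11). Mtor and Foxo3 each lay above every low hair shaft library in 5 high libraries, and Foxo1 in 4. N-IKKa held 3 high libraries and C-IKKa 1, and the part of hair state in these values was not tested.

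Growth hormone raises Igf1 through its receptor and STAT5, and SOCS proteins damp that signal. Of 8 genes of this axis, 0 were called in each comparison. Socs1 gave 0.69 (SE 0.21, limma adjusted p = 0.36) and the kinase gene Jak2 0.35 (SE 0.11, limma adjusted p = 0.414) in C-IKKa against WT. In N-IKKa against C-IKKa the 8 genes were all negative, with a median of −0.32, among them Jak2 (−0.35, SE 0.11) and Stat5a (−0.49, SE 0.19). The median of all genes there was 0.0061. The list's median log2 difference of high from low hair shaft libraries was −0.56, and N-IKKa held 3 high libraries against 1 in C-IKKa. The part of hair state in the shared sign was not tested. Socs3 and Socs2 gave −0.42 (SE 0.24) and −0.58 (SE 0.38) in N-IKKa against WT. Between the hair states, the receptor gene Ghr held 3312 to 5021 (median 3922) in the high and 5516 to 9147 (median 6497) in the low libraries. Stat5b held 733 to 1348 (median 900) and 1383 to 1671 (median 1483). Both were lower in every high library, and they were the 2 of 8 genes without overlap, beside 5.25% of all genes lower and 13.7% in either direction.

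Of the 2 tested genes that encode IGF2 mRNA binding proteins, 0 were called. Igf2bp2 gave −0.43 (SE 0.40) and Igf2bp3 0.15 (SE 0.14) in C-IKKa against WT, and −0.34 and 0.14 in N-IKKa against WT. Igf2bp1 was under the filter. It held 3.02 to 10.4 normalized counts in the high and 0 to 2.69 in the low libraries. The low libraries and WT 1, a high library with 3.02, were at or under the limit that a count of 0 allows.

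Among 12 genes of the imprinted network, 0 of 9 tested genes were called. Plagl1, a zinc finger factor known to regulate Igf2 and H19, gave −0.40 in C-IKKa against WT (SE 0.15, limma adjusted p = 0.645) and 0.46 in N-IKKa against C-IKKa (SE 0.15, limma adjusted p = 0.292). Mest gave −0.46 in C-IKKa against WT (SE 0.25), Cdkn1c, an inhibitor of the cell cycle, −0.49 in N-IKKa against WT (SE 0.29), Sgce −0.21 there (SE 0.18), and Peg3 0.45 in N-IKKa against C-IKKa (SE 0.25). Ndn and Nnat were listed at 0 throughout, and in GRCm38 all of their exon bases lie inside other genes' spans. Dcn, the matrix proteoglycan decorin, was lower in all high hair shaft libraries (6600 to 11283 against 15194 to 31661), beside 5.25% of all genes. Phlda2 was higher in all of them (21.9 to 78.8 against 0 to 16.6), beside 8.45% of all genes. Too few low hair shaft libraries reached the filter's threshold for Phlda2 to be tested without the high ones. Its place among the tested genes therefore depends on the hair state it is compared by. Dcn is also among the fibroblast markers.

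H19 ran over a wider range in WT than any other member on the log2 scale. It is a long non-coding RNA that also hosts a miRNA, whose mature forms are shown because the host was abundant while the separate row for Mir675 was listed at 0. RefSeq (GRCm38.p6) places the 3p form at chr7:142577078-142577099 and the 5p form at chr7:142577112-142577133, on the minus strand. Capitals mark the seed, bases 2 to 8.
mmu-miR-675-5p: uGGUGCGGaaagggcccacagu
mmu-miR-675-3p: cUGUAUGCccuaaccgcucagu
The whole of Mir675 lies inside an H19 exon, so its reads cannot be told apart from those of the host, and libraries of mRNA do not measure mature miRNAs.

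H19 held 10899, 6887, 4225, 804, 4766 and 2062 normalized counts in WT 1 to 6. N-IKKa skin held 1659 to 3908 (median 2109) and C-IKKa skin 1482 to 4626 (median 3243). WT held both the highest and the lowest library, and the groups overlapped. The log2 fold change was −0.71 in N-IKKa against WT (SE 0.49, 95% limits −1.73 to 0.31, limma adjusted p = 0.88) and −0.46 in C-IKKa against WT (SE 0.49, limma adjusted p = 0.985). Leaving out WT 1 or WT 4 moved these H19 values between −1.15 and −0.40 and between −0.90 and −0.15. The hair states overlapped, at 804 to 10899 in the high and 1482 to 6887 in the low libraries.

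Libraries with more H19 had higher skeletal muscle markers. The list held 18 markers, of which Myh7 was at 0, and Tnnt3 is also a neighbour of H19 in the locus. As the hair states form separate clusters, the relation was computed within each, a family of 4 tests. In the 12 low libraries Pearson's r between log2 H19 and the mean of the list was 0.77 (permutation p = 0.00432, adjusted 0.00864). Spearman's rank correlation was 0.84 (permutation p = 0.00117, adjusted 0.00468). Without WT 3 and WT 5, the pair farthest from the median of the list, r was 0.71. In the 6 high libraries Pearson's r was 0.81 (exact permutation p = 0.0528, adjusted value 0.0528) and rho 0.89 (exact permutation p = 0.0333, adjusted value 0.0444). Without C-IKKa 14 and WT 4, r was 0.94 over the remaining 4 libraries (exact permutation p = 0.0833), too few to weigh. Within the 8 low male libraries r was 0.92, and the 4 low females were too few to be given a value. The muscle list itself ran from 8.37 to 11.1 in the high and from 10.1 to 11.5 in the low libraries. How much skin muscle each sample held was not given in the sources used here. Relations with Igf2 had no values to compute, since it was at 0.

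**Figure D4:**
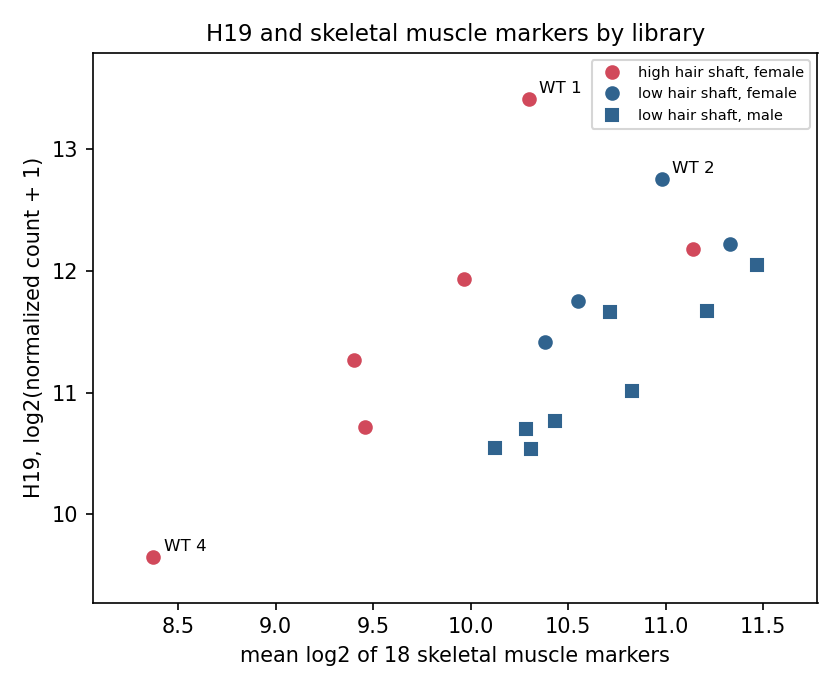
H19, as log2(normalized count + 1), against the mean log2 value of 18 skeletal muscle markers, 1 point per library; colours and shapes mark hair state and sex as read from the data. Within each state the points run from lower left to upper right (r = 0.77 in 12 low and 0.81 in 6 high libraries), with WT 4 lowest and WT 1 highest in H19.

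Of the locus neighbours, 0 of 4 tested genes were called. Nctc1 gave −0.81 in N-IKKa against WT (SE 0.43) and −0.87 against C-IKKa (SE 0.43). Lsp1, a leukocyte gene, gave −0.33 in the first (SE 0.22), and Tnnt3, a fast muscle troponin, −0.79 in the second (SE 0.45). The median log2 difference of high from low hair shaft libraries over the tested neighbours was −0.87. N-IKKa held 3 high libraries, against 2 in WT and 1 in C-IKKa. The part of hair state in these values was not tested. In C-IKKa against WT, Tnnt3 and the ribosomal protein gene Mrpl23 gave 0.18 (SE 0.45) and 0.056 (SE 0.15).

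The genes most like each of 3 members were sought over the 12 low hair shaft libraries, by Pearson's r of log2 values among 12592 tested genes with a mean of at least 50 normalized counts and a name. These values are descriptions of libraries that share their depth and tissue makeup, and r in the 6 high libraries is given beside each. For Igf1 the nearest were Polr3k (0.96, and −0.52 in the high libraries), Dnajc15 (0.95, and 0.15) and Magt1 (0.91, and 0.26). For H19 they were Kcnj11, a potassium channel subunit gene (0.96, and 0.78), Rcsd1 (0.88, and 0.46) and the thyroid hormone receptor gene Thrb (0.88, and −0.034). For Igfbp5 they were Plagl1 (0.92, and −0.73), Vezf1 (0.91, and 0.74) and Serpinb12 (0.90, and 0.59). Of these 9 genes, 6 kept a positive r in the high libraries, and the highest there was that of Kcnj11 with H19.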

How the data were processed

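RNA of back skin was sequenced from 18 mice in 3 genotype groups, and groups were taken from the sample labels. Per the labels' protocols, libraries came from a stranded mRNA kit and were read as pairs. The counting tool was featureCounts and the build GRCm39, per the submitters' processing notes. The sources used here do not give the aligner, versions, strand setting, annotation release or scaling tool. The deposited values are a signal, a normalized count for each gene and library. Dividing by the smallest step of a library turned 100% of its values above 0 into whole reads within 0.01, so the authors are taken to have scaled gene counts by 1 factor per library.

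Values were analysed as log2(normalized count + 1) with limma 3.58.1 in R 4.3.3 (empirical Bayes with a trend). All 18 libraries entered 1 model of 17667 genes with at least 10 in at least 6 libraries, and two-sided p-values were adjusted by Benjamini-Hochberg within each comparison. Alternatives were pseudocounts of 0.5 and 5, no filter or a filter of 50, TMM and quantile scaling, edgeR 4.0.16 and DESeq2 1.42.0 on recovered reads, covariates for hair shaft mean and sex, leaving out the 6 high hair shaft libraries or each library in turn, and the compared groups alone. Fold changes are on the log2(value + 1) scale. The model was tested on simulated data. Correlations used 100000 permutations, or all permutations for fewer than 10 libraries. Nothing says more of the replicates than that each library is 1 mouse.

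All members were named, with the called genes of each pathway list or else those with the smallest p (a pair per comparison), and the 3 genes most like Igf1, H19 and Igfbp5. Genes of the lists named for their hair states were chosen after their values were seen. The members and all lists were chosen with earlier results of these data known. Exon lengths and overlaps came from GENCODE M21, matched by gene identifier for 52081 of 55357 genes.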

Additional observations from a re-analysis of the deposited data

Results flagged for a closer look

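In 3 of the 27 combinations of member and genotype group, 1 library stood apart from the other 5 by Dixon's criterion, which flags about 1 group in 20 by chance. All 3 were in C-IKKa. Igf1 was 3020 normalized counts in C-IKKa 18, the 1 low female library of the group, and 2137 to 2462 in the others. Igf2r was 928 in C-IKKa 14, the 1 high hair shaft library of the group, and 697 to 770 in the others. Igfbp6 was 954 in C-IKKa 15, a low male library, and 523 to 673 in the others.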

How the results depend on the processing

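Under every alternative, the count of members called stayed 0 in the 3 comparisons. Of 837 single values of members under the alternatives, 785 kept their direction and 52 changed sign, 26 of them on leaving out 1 library, and none of the 837 was called. No paired analysis was possible because the replicate numbers of the groups (1 to 6, 7 to 12 and 13 to 18) share no number.

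With the sex covariate, log2 fold changes of the opposite sign were −0.027 for Igfbp3, 0.088 for Igfbp4 and −0.17 for Igfbp5 in C-IKKa against WT, and −0.045 for Igfbp2 in N-IKKa against C-IKKa. With the hair shaft covariate they were 0.015 for Igfbp4 and −0.090 for Igfbp5 in the first, and −0.032 for Igfbp2 and 0.079 for Igfbp6 in the second. With both covariates, Igfbp4 and Igfbp5 gave 0.048 and −0.087 in the first, and Igfbp2 and Igfbp6 −0.056 and 0.059 in the second. Without the 6 high hair shaft libraries, Igf1r gave 0.021, Igfbp4 0.029 and Igfbp5 −0.40 in C-IKKa against WT, Igfbp6 0.33 in N-IKKa against WT, and Igf2r −0.014, Igfbp5 0.24 and Igfbp6 0.53 in N-IKKa against C-IKKa. Quantile scaling gave 0.063 for Igf1r in C-IKKa against WT. With edgeR and DESeq2, Igfbp5 gave −0.11 and −0.12 in that comparison, and Igfbp6 gave 0.048 and 0.047 in N-IKKa against WT and 0.080 and 0.080 in N-IKKa against C-IKKa. The cause of these changes was not tested.

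Leaving out 1 library in turn, values that changed sign in C-IKKa against WT ran from −0.18 to 0.021 for Igf1, −0.033 to 0.020 for Igf1r, −0.20 to 0.048 for Igfbp4, −0.31 to 0.20 for Igfbp5 and −0.19 to 0.070 for Igfbp6. In N-IKKa against WT they ran from −0.13 to 0.070 for Igf2r and −0.38 to 0.17 for Igfbp6, and in N-IKKa against C-IKKa from −0.058 to 0.14 for Igfbp2 and −0.37 to 0.17 for Igfbp6. Igfals kept its call in C-IKKa against WT under every alternative, with log2 fold changes of 1.21 to 1.52 and adjusted p of 4.25e-05 to 0.0476.

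The calls over all genes moved more. In C-IKKa against WT, 61 genes were called, 165 with the hair shaft covariate, 156 with both covariates, 163 without the 6 high libraries, 151 with DESeq2 and 38 with a filter of 50. Leaving out C-IKKa 13, 16, 17 or 18 gave 33, 33, 35 or 40. In N-IKKa against C-IKKa, 75 genes were called lower, 149 with the hair shaft covariate, 165 with both covariates, 171 with DESeq2, 47 with a filter of 50 and 47 without the 6 high libraries. Leaving out N-IKKa 11 or C-IKKa 13, 16 or 17 gave 49, 47, 39 or 38. The count of members without overlap between hair states was 4 with TMM and 3 with quantile scaling. The limits of the genotype differences are wide for Igfbp3, Igfbp5, Igfbp6 and H19, where 6 libraries a group leave room for changes that were not detectable.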
